A study of Mus musculus with 11 samples.

Results

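Stat3 was deleted in mice and the RNA of myeloid cells from their irradiated tumours was set against that of wild-type mice. The libraries were chosen by their titles, 4 that start with STAT3KO and 3 that start with WT, which makes 7 of the 11 libraries of the series. The other 4 libraries are from mice that lack Tlr9 (TLR9KO), and they enter the model only as a group of their own. All mice were C57BL/6. They carried subcutaneous tumours that received 15 Gy of local irradiation and were taken at day 4, and CD11b-positive cells were then enriched with antibody and magnetic beads. The WT libraries are from C57BL/6 mice with no allele named. The STAT3KO libraries are from Stat3-/- mice made with MxCre and a floxed Stat3 gene. MxCre is driven by the interferon-inducible Mx1 promoter, which is not limited to myeloid cells, so other host cells can have lost Stat3 as well. How Cre was induced is not given in the sources used here. The labels do not tie the replicates to separate mice, so a p-value here speaks of the spread among these samples alone, and that spread may be technical.

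STAT3 is a transcription factor that rests in the cytoplasm until a cytokine receptor, such as those for IL-6 or IL-10, activates the Janus kinases bound to it. Phosphorylated STAT3 then enters the nucleus and binds target genes, among them Socs3, whose product turns the same receptors off. In myeloid cells the pathway is known for restraining inflammatory gene expression and for its activity in tumour-associated macrophages and myeloid-derived suppressor cells.

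Stat3 itself was measured at 70.7, 72.5 and 76.1 RPKM (read density per kilobase of transcript, normalised to the mapped reads of the library) in WT and at 19.7, 15.7, 19.6 and 17.8 RPKM in STAT3KO. The groups were far apart, and the STAT3KO mean was 24.9% of the WT mean (log2 difference -1.95 ± 0.09, limma adjusted p = 2.44e-06). Unless TLR9KO is named, a log2 difference here and below is STAT3KO minus WT on the log2(RPKM + 1) scale, and ± gives its moderated standard error. RPKM values are given per library in replicate order. Which exons gave the remaining reads cannot be read from values per gene.

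Depth, estimated from the steps of the values, was 30 to 37.65 M reads in WT and 32.75 to 53.45 M reads in STAT3KO. For a transcript of 2 kb, 60 to 107 reads make 1 RPKM. The first principal component held 41.5% of the variance over all genes tested and placed WT at 27.58 to 31.91 and STAT3KO at -27.77 to -24.19, with TLR9KO between them. The cells carried the RNA of myeloid cells: all 14 pan-myeloid markers passed the filter, and their summed level was 7855 to 9698 RPKM in WT and 10632 to 13641 RPKM in STAT3KO. Itgam, which encodes the CD11b used for the sort, was 294, 296 and 313 RPKM in WT and 191, 228, 225 and 228 RPKM in STAT3KO. Its log2 difference of -0.47 ± 0.17 passed narrowly (limma adjusted p = 0.0416), and the call was lost without any 1 of 9 libraries, TLR9KO replicates 1 and 3 being the exceptions (adjusted p up to 0.109; 0.0054 to 0.109 over all alternatives). STAT3KO replicate 2 stood apart by neutrophil and red cell RNA, described with the markers of other cells. In bulk RNA, fewer cells of a type and less RNA per cell cannot be told apart.

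The test covered 10557 genes whose 11 libraries averaged 1 RPKM or more, of which 4648 (44%) passed the test with a limma adjusted p under 0.05, and these are the genes said to have risen, fallen or been called. Among all genes tested, 3083 (29.2%) rose and 1565 (14.8%) fell in STAT3KO. The change was at least 2-fold, a log2 difference of 1 or more, for 6.11% of the genes tested, 388 genes that rose (3.68%) and 257 that fell (2.43%). The libraries of both groups did not overlap for 5032 genes (47.7%), with STAT3KO above WT for 30.8% and below WT for 16.9% of the genes tested. Rises outnumbered falls below 2 on the log2 scale, and falls outnumbered rises from there on. Of the changes under 0.5, 1246 were rises and 710 were falls. From 0.5 to 1 there were 1449 rises and 598 falls, and from 1 to 2 there were 371 and 210. Of those from 2 to 3 there were 15 rises and 38 falls. At 3 or more, 2 genes rose and 9 fell.

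**Figure D1:**
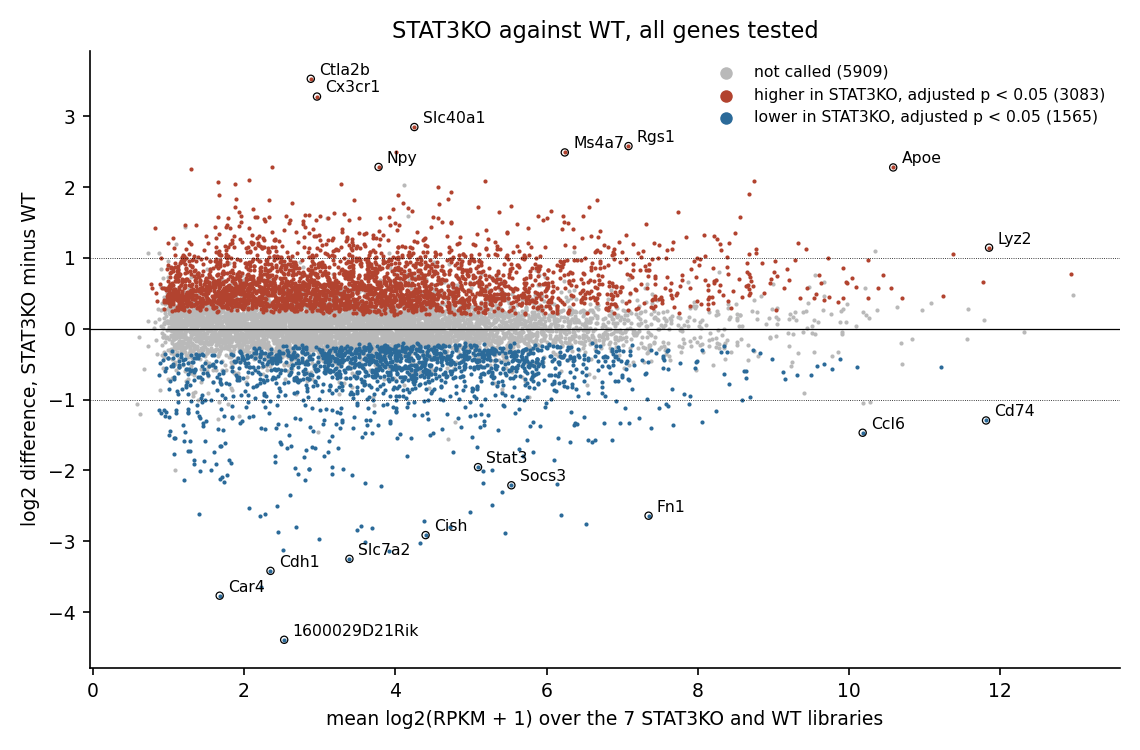
Log2 difference of STAT3KO minus WT (vertical axis) against the mean log2(RPKM + 1) of the 7 libraries (horizontal axis) for the 10557 genes tested, coloured by whether limma's test called them higher (3083), lower (1565) or neither. The falls reach past -4 while the rises end below 4, and most called genes lie between the dotted lines that mark a 2-fold change.

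The balance of rises and falls depended on how libraries were scaled. The median log2 difference of all genes tested was 0.09 as deposited and -0.02 with median-ratio scaling, and the share of called genes that rose was 66.3% and 48.6%. The small changes also followed gene properties. Across genes, which are not independent replicates, the log2 difference had a Spearman correlation of -0.24 with GC content and -0.30 with transcript length. The fifth of genes with the shortest transcripts had a median of 0.34 and the fifth with the longest a median of -0.07. When both properties were regressed out of the libraries, 2102 genes rose and 1922 fell. That fit, the GC and length correction below, also set the libraries to the same mean level. Calls that change with it can therefore reflect scaling as well as gene properties. Large changes were spread over all levels of expression: genes called with at least a 2-fold change made up 5.52% of those at 1 to 5 RPKM, 6.47% of those at 20 to 100 RPKM and 12.3% of those at 100 to 500 RPKM.

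The largest fall was that of 1600029D21Rik, named Plet1 by RefSeq, which encodes a cell-surface protein. It had 31.5, 51.9 and 19.8 RPKM in WT and 0.86, 0.21, 0.71 and 0.57 RPKM in STAT3KO. Every STAT3KO library was below 1 RPKM and every WT library near 20 RPKM or above (log2 difference -4.39 ± 0.41, limma adjusted p = 3.11e-05). Car4, a membrane-bound carbonic anhydrase, had 33.1, 7.99 and 8.42 RPKM in WT and 0.03, 0.09, 0.06 and 0 RPKM in STAT3KO. It was nearly absent from STAT3KO, while WT replicate 1 held about 4 times as much as the other WT libraries (log2 difference -3.77 ± 0.73, limma adjusted p = 0.00192). Pdcd1lg2, which encodes PD-L2, a ligand of the T cell checkpoint receptor PD-1, had 14.6, 23.6 and 19.3 RPKM in WT and 0.56, 0.15, 0.96 and 0.78 RPKM in STAT3KO (log2 difference -3.65 ± 0.43, limma adjusted p = 0.00011). Cdh1, the adhesion protein E-cadherin, had 25.4, 17.4 and 14.8 RPKM in WT and 0.81, 0.73, 0.82 and 1.04 RPKM in STAT3KO (log2 difference -3.42 ± 0.30, limma adjusted p = 2.44e-05). For both, no STAT3KO library reached 2 RPKM and no WT library was under 14 RPKM.

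Arginine uptake and its conversion to nitric oxide were part of a list of 17 tested genes that also held the phagocyte oxidase subunits and antioxidant enzymes. Of the whole list 3 fell (17.6%, against 14.8% of all genes tested) and 2 rose (11.8%, against 29.2%). Slc7a2, a transporter of arginine and other cationic amino acids, had 41.2, 40.3 and 30.6 RPKM in WT and 3.76, 4.2, 1.89 and 2.59 RPKM in STAT3KO (log2 difference -3.25 ± 0.24, limma adjusted p = 1.34e-05). Nos2, the inducible enzyme that makes nitric oxide from arginine, had 72.6, 56.5 and 120.4 RPKM in WT and 9.55, 13.3, 10.9 and 8.8 RPKM in STAT3KO (log2 difference -2.80 ± 0.21, limma adjusted p = 1.58e-05). The lowest WT library was above 4 times the highest STAT3KO library for both genes. Slc7a1, a related transporter, fell less (-1.17 ± 0.19). The genes of the list that rose were Sod1, the cytosolic superoxide dismutase (1.09 ± 0.11), and Cat, catalase (0.81 ± 0.13), and none of the phagocyte oxidase subunits was called.

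Among the rest of the 15 largest falls, Tarm1, an activating receptor of myeloid cells, had 69.3, 69.4 and 59.5 RPKM in WT and 6.02, 12.3, 6.42 and 5.53 RPKM in STAT3KO (log2 difference -3.03 ± 0.28, limma adjusted p = 2.58e-05). Ccl17, a chemokine that attracts T cells with the receptor CCR4, had 158, 214 and 74.4 RPKM in WT and 24.1, 10.1, 24.3 and 15.9 RPKM in STAT3KO. The WT libraries differed among themselves, yet the lowest of them was above 3 times the highest STAT3KO library (log2 difference -2.88 ± 0.45, limma adjusted p = 0.000549). Pgf, placental growth factor of the VEGF family, had 37.1, 23.9 and 43.3 RPKM in WT and 5.39, 4.57, 2.99 and 2.92 RPKM in STAT3KO (log2 difference -2.84 ± 0.39, limma adjusted p = 0.000277). Tnfrsf9, the co-stimulatory receptor 4-1BB, fell by 2.81 ± 0.37 on the log2 scale, and Ccdc80, a secreted matrix protein, by 3.13 ± 0.26. Falls of 2.96 for Hr, the nuclear corepressor hairless, 2.87 for Slc27a3, a fatty acid transport protein, and 2.80 for Asgr2, a subunit of the asialoglycoprotein receptor, rested on more uneven WT libraries. WT replicate 3 was the lowest and WT replicate 2 the highest for those 3 genes. Every STAT3KO library lay below all of WT, but the 15 largest falls were drawn only from genes without overlap. Cyp26b1, an enzyme that inactivates retinoic acid, had 7.28, 3.81 and 4.13 RPKM in WT and 0.44, 0.69, 0.41 and 0.35 RPKM in STAT3KO and was, with Car4 and Hbb-b2, 1 of 3 genes named for a STAT3KO mean under 0.5 RPKM beside a WT mean of at least 5 RPKM (log2 difference -2.01 ± 0.36, limma adjusted p = 0.00132).

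The largest rise was that of Ctla2b, a cathepsin inhibitor-like protein, with 0.49, 1.43 and 0.67 RPKM in WT and 16.3, 18.7, 17.1 and 30.8 RPKM in STAT3KO (log2 difference 3.53 ± 0.24, limma adjusted p = 1.09e-05). Cx3cr1, the fractalkine receptor of monocytes and resident macrophages, had 0.54, 1.47 and 1.54 RPKM in WT and 14.2, 11.4, 23.7 and 38.4 RPKM in STAT3KO (log2 difference 3.28 ± 0.38, limma adjusted p = 0.000107). No WT library of either gene reached 2 RPKM and no STAT3KO library was under 11 RPKM. Slc40a1, the iron exporter ferroportin, had 7.62, 1.89 and 8.4 RPKM in WT and 57.6, 43, 22 and 64.6 RPKM in STAT3KO (log2 difference 2.85 ± 0.47, limma adjusted p = 0.000803). Rgs1, which shortens signals from chemokine receptors, had 30.6, 61.4 and 58 RPKM in WT and 289, 254, 319.8 and 306 RPKM in STAT3KO, and each STAT3KO library was at least 4 times the highest WT library (log2 difference 2.58 ± 0.24, limma adjusted p = 2.65e-05). Ms4a7, a membrane protein of macrophages, had 22.3, 37.1 and 24.2 RPKM in WT and 147, 89.1, 168 and 279 RPKM in STAT3KO (log2 difference 2.49 ± 0.32, limma adjusted p = 0.000179). Apoe, the lipid carrier of tissue macrophages, had 729.5, 721 and 456 RPKM in WT and 2086, 3744, 2618 and 4059 RPKM in STAT3KO, so that the lowest STAT3KO library was over 2 times the highest WT library (log2 difference 2.28 ± 0.24, limma adjusted p = 6.53e-05).

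**Figure D2:**
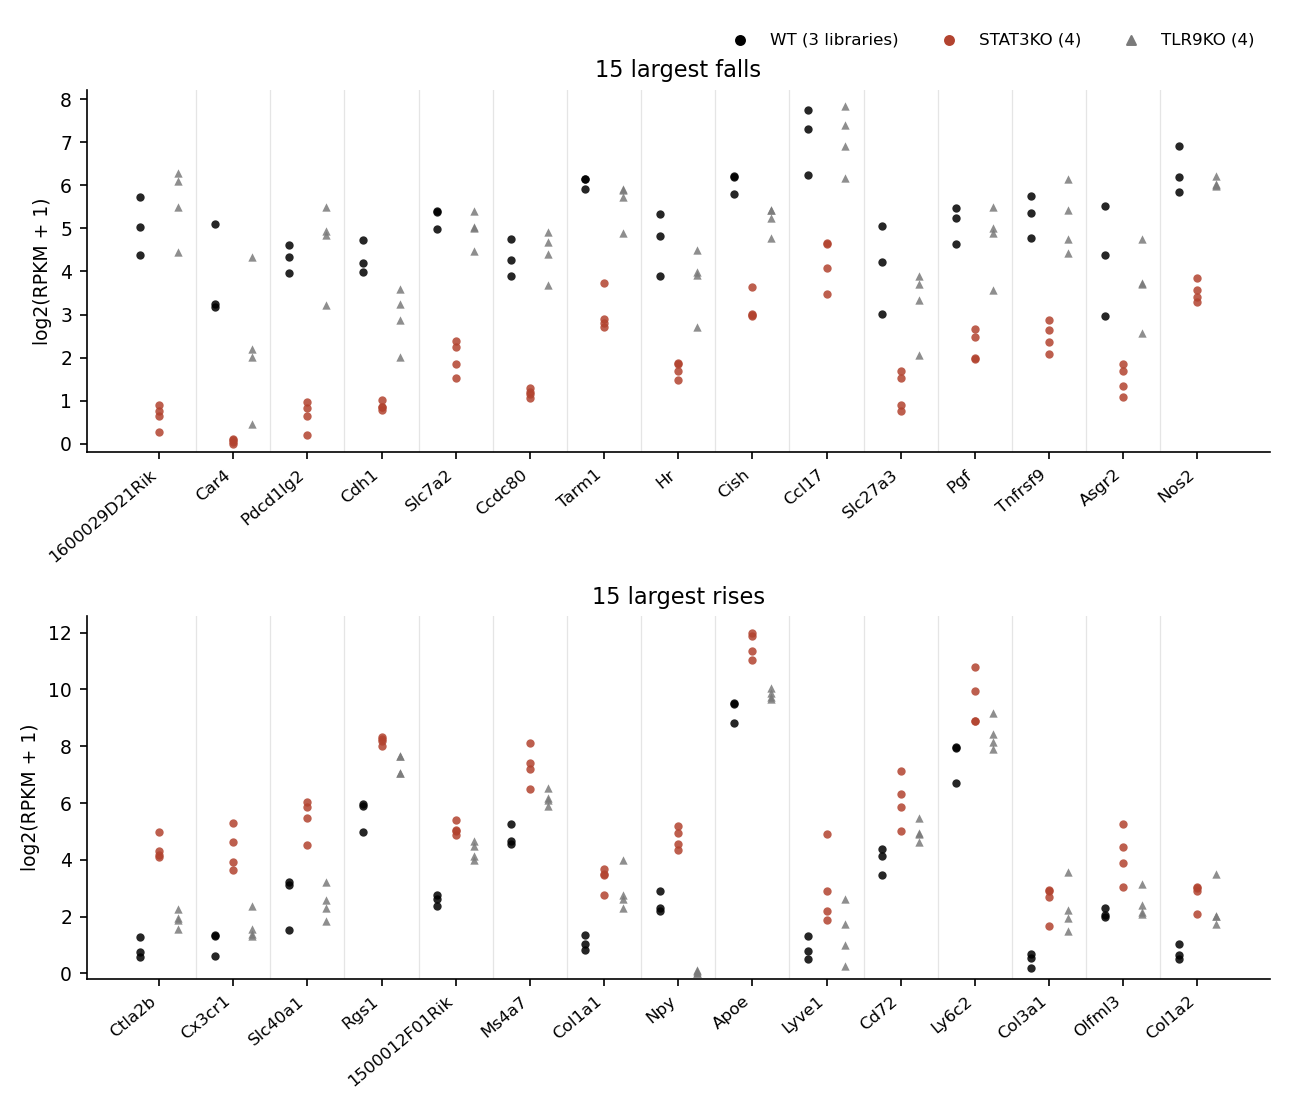
Log2(RPKM + 1) in every library for the 15 genes with the largest falls (top) and rises (bottom) among called genes with no overlap of STAT3KO and WT and a mean of 5 RPKM or more in the higher group; each point is 1 library (WT n = 3, STAT3KO n = 4, TLR9KO n = 4). That choice places the STAT3KO points of the falls below all WT points. For Npy the TLR9KO points lie near 0, below WT.

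Npy, the neuropeptide Y precursor, had 3.63, 3.9 and 6.54 RPKM in WT and 29.8, 35.6, 19.4 and 22.4 RPKM in STAT3KO (log2 difference 2.29 ± 0.21, limma adjusted p = 2.55e-05), while the TLR9KO libraries held 0 to 0.09 RPKM. Olfml3, a secreted glycoprotein (2.05 ± 0.42), Cd72, a receptor of B cells and macrophages (2.09 ± 0.41), and Ly6c2, a surface antigen of inflammatory monocytes (2.08 ± 0.50), also rose. Ly6c2 was uneven in STAT3KO, at 472, 989, 1793 and 469.8 RPKM, and WT replicate 1 was lower than the other WT libraries, at 104, 247 and 252 RPKM. Lyve1, a hyaluronan receptor of lymphatic vessels and of some tissue macrophages, had 1.51, 0.74 and 0.4 RPKM in WT and 2.71, 28.7, 6.51 and 3.58 RPKM in STAT3KO. Its rise (log2 difference 2.10 ± 0.69, limma adjusted p = 0.0285) leaned on STAT3KO replicate 2. The call was lost without STAT3KO replicate 3, WT replicate 2 or WT replicate 3 (adjusted p up to 0.0895; 0.0197 to 0.0895 over all alternatives) and with the GC and length correction. The remaining genes of the 15 largest rises were 3 collagen genes and 1500012F01Rik, taken up with the fibroblast markers and the snoRNA host genes.

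Abundant transcripts moved too. By difference in RPKM the leading rises outside those above included Lyz2, lysozyme, with 2376, 3113 and 1746 RPKM in WT and 4844, 4192, 5566 and 6427 RPKM in STAT3KO (1.15 ± 0.25), Tmsb4x, an actin-binding thymosin (1.05 ± 0.24), Tmsb10, its relative (1.00 ± 0.17), Tpt1p, a copy of the translationally controlled tumour protein gene that can share reads with it (0.97 ± 0.11), and Eef1a1, the translation elongation factor (0.47 ± 0.11). The calls of Tmsb4x and Eef1a1 were lost with the GC and length correction. Ftl2, per RefSeq a pseudogene of the ferritin light chain that can share reads with its parent (0.66 ± 0.21), passed as deposited. So did C1qb, a subunit of complement C1q (0.76 ± 0.24). Neither passed with median-ratio scaling or the GC and length correction. Ftl2 was also lost without WT replicate 1 or 2 or STAT3KO replicate 1 or 2 (adjusted p up to 0.0996; 0.0107 to 0.195 over all alternatives). C1qb was lost without WT replicate 1 or 3 or STAT3KO replicate 2 or 4 (up to 0.0851; 0.00403 to 0.15). H2-D1, a class I antigen-presenting molecule (0.58 ± 0.17), was lost with median-ratio scaling and without WT replicate 1 (0.0932; 0.00359 to 0.0932).

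Among abundant genes that fell, Fn1, fibronectin, had 611, 495 and 328 RPKM in WT and 66.9, 97.2, 73.4 and 60.9 RPKM in STAT3KO, with every STAT3KO library below 100 RPKM (log2 difference -2.64 ± 0.39, limma adjusted p = 0.000434). Ccl6, a chemokine of myeloid cells, had 2384, 1767 and 2116 RPKM in WT and 734, 1226, 577 and 606 RPKM in STAT3KO (log2 difference -1.47 ± 0.25, limma adjusted p = 0.000854). Tgfbi, a matrix protein induced by TGF-beta, fell by 0.97 on the log2 scale, S100a11, a calcium-binding protein, by 0.65, and Actg1, cytoplasmic actin, by 0.54. Cotl1, an actin-binding protein (-0.50 ± 0.14), Laptm5, a lysosomal membrane protein of blood cells (-0.54 ± 0.11), and Atp6v0c-ps2, a pseudogene of a proton pump subunit that can share reads with its parent (-0.65 ± 0.12), fell as well. Cd74, the invariant chain of class II molecules, had 5228, 8314 and 4969 RPKM in WT and 2284, 1932, 3673 and 2205 RPKM in STAT3KO (log2 difference -1.29 ± 0.38, limma adjusted p = 0.0178). Its call was lost without WT replicate 2 (adjusted p = 0.0694; 0.00286 to 0.0803 over all alternatives). Eef2, a translation elongation factor (-0.43 ± 0.12), lost its call with the GC and length correction and without WT replicate 1 (adjusted p = 0.0645; 0.00121 to 0.0894).

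Within the STAT3 pathway the feedback inhibitors held the largest falls. Promoters of 4 genes that fell and hold the STAT motif TTCNNNGAA are shown, 2 of inhibitors, Socs3 and Cish, and 2 of immune receptors or ligands, Il1r2 and Ccl17. They are RefSeq sequences of build GRCm38.p6, which is not the build of the files, written 5′ to 3′ on the strand of the gene. Capitals mark the motif, and positions count from the start of transcription. Socs3 lies at chr11:117969367-117969616 on the minus strand, with 250 bases before the start and its motif beginning 154 bases before it. Cish lies at chr9:107296409-107296678 on the plus strand, with 270 bases that run 20 past the start and motifs at bases 1 and 12 after it. Il1r2 lies at chr1:40085843-40086092 on the plus strand, with its motif 111 bases before the start, and Ccl17 at chr8:94810203-94810452 on the plus strand, with its motif 99 bases before.
Socs3: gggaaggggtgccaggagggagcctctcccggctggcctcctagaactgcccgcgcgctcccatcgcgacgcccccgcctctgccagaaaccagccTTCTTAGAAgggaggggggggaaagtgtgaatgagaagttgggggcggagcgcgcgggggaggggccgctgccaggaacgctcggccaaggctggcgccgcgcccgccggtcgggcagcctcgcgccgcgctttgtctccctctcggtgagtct
Cish: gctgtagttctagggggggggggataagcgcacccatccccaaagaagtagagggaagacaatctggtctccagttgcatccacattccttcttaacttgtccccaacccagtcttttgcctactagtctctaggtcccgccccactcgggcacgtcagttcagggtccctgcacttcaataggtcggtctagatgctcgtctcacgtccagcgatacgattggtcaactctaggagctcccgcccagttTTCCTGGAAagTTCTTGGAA
Il1r2: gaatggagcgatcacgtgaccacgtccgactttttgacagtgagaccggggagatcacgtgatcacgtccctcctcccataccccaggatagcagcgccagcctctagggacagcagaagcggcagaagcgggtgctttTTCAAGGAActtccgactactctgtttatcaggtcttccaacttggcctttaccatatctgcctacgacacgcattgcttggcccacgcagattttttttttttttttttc
Ccl17: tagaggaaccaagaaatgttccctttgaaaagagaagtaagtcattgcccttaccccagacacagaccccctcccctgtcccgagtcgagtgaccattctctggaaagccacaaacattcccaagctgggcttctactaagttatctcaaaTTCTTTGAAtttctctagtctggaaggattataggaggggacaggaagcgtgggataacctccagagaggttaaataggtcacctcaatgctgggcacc

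The motif was read on the gene's strand, and since its reverse complement has the same form this covers both strands. In windows of 300 bases, from 250 before to 50 after the start, TTCNNNGAA was present for 23 of 177 genes that fell at least 2-fold and have a promoter in the table (13%). It was present for 24 of 294 genes that rose at least 2-fold (8.16%), for 679 of the 8390 tested genes with a promoter (8.09%) and for 9.55% of all 27025 symbols in the table. The same motif with a spacer of 4 bases was in 7.91%, 7.82%, 6.56% and 8.01% of the same sets. A match of letters is not a binding site.

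Of the 17 tested genes of the SOCS, PIAS and phosphatase inhibitors 7 fell (41.2%) and 1 rose, against 14.8% and 29.2% of all genes tested. Cish, an inhibitor induced by cytokines and growth factors, had 71.7, 72.9 and 54.99 RPKM in WT and 6.9, 6.87, 11.5 and 7.05 RPKM in STAT3KO (log2 difference -2.91 ± 0.20, limma adjusted p = 1.09e-05). Socs3, the inhibitor of receptors that contain gp130, had 107, 116 and 108 RPKM in WT and 19.4, 24.1, 30.2 and 19.97 RPKM in STAT3KO (log2 difference -2.21 ± 0.19, limma adjusted p = 2.18e-05). For both, the lowest WT library was above 3 times the highest STAT3KO library. Socs2, which dampens growth hormone signals, had 5.65, 8.02 and 5.03 RPKM in WT and 2.49, 2.18, 3.13 and 2.33 RPKM in STAT3KO (log2 difference -1.02 ± 0.15, limma adjusted p = 0.000412). Smaller falls were found for the phosphatases Ptpn1 (-0.78 ± 0.18) and Ptpn11 (-0.26 ± 0.08) and for Socs6 (-0.55 ± 0.14) and Socs7 (-0.44 ± 0.10); Ptpn11 lost its call with the GC and length correction. Socs4 rose (0.39 ± 0.12) but lost its call with median-ratio scaling, with the GC and length correction and without WT replicate 1 or STAT3KO replicate 1 (adjusted p up to 0.104; 0.00243 to 0.21 over all alternatives). Socs1, the inhibitor induced by interferons, differed by -0.70 ± 0.28 without passing (limma adjusted p = 0.0669), though it passed in 7 of 22 alternatives (adjusted p from 0.0155 to 0.179), and none of the 4 Pias genes passed.

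Ligands of STAT3-activating receptors changed in both directions, with 3 of 7 tested falling (42.9%) and 2 rising (28.6%), against 14.8% and 29.2% of all genes. Osm, oncostatin M, had 222, 207 and 222 RPKM in WT and 67.8, 69.7, 100.1 and 57.3 RPKM in STAT3KO, and no STAT3KO library exceeded 100.1 RPKM, against at least 207 RPKM in WT (log2 difference -1.57 ± 0.19, limma adjusted p = 0.000132). Il6, interleukin 6, had 4.45, 7.39 and 4.26 RPKM in WT and 0.97, 0.35, 1.33 and 1.44 RPKM in STAT3KO (log2 difference -1.66 ± 0.27, limma adjusted p = 0.000812). Lif, leukaemia inhibitory factor, fell by 0.94 ± 0.19 on the log2 scale. Il10, interleukin 10, had 1.42, 3.3 and 3.82 RPKM in WT and 5.23, 4.9, 6.78 and 5.97 RPKM in STAT3KO (log2 difference 0.86 ± 0.23, limma adjusted p = 0.0115) and lost its call with the GC and length correction. Ebi3, a subunit of IL-27 and IL-35, rose by 0.89 ± 0.20, while Il27, its partner in IL-27, differed by 0.77 ± 0.30 without passing (limma adjusted p = 0.0565). Il27 did pass in 8 of 21 alternatives, among them the 7 libraries alone and the replicate block (adjusted p from 0.00688 to 0.2). The other 10 of 17 ligand genes had a mean under 1 RPKM and were not tested.

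Of 14 receptors tested 1 rose and 1 fell (7.14% each), against 29.2% and 14.8% of all genes. Il10rb, the shared subunit of the IL-10 and IL-22 receptors, rose (log2 difference 0.53 ± 0.14, limma adjusted p = 0.00992) and Il6st, the shared gp130 subunit, fell (log2 difference -0.85 ± 0.28, limma adjusted p = 0.0284). The call of Il6st was lost without WT replicate 1 or 3 or STAT3KO replicate 4 (adjusted p up to 0.0985; 0.00111 to 0.0985 over all alternatives). Il6ra (0.33 ± 0.19) and Il10ra (-0.29 ± 0.27), the specific subunits for IL-6 and IL-10, did not pass (limma adjusted p = 0.181 and 0.407), but Il6ra passed without WT replicate 2. Of the 9 other Janus kinases and STATs 4 fell (44.4%, against 14.8% of all genes) and 0 rose (against 29.2%), with 7 falls under median-ratio scaling and 2 without WT replicate 2. Jak3, the kinase of the common gamma chain, had 19.7, 18.6 and 22.1 RPKM in WT and 7.68, 6.71, 6.98 and 7.62 RPKM in STAT3KO (log2 difference -1.36 ± 0.12, limma adjusted p = 2.44e-05). Tyk2 (-0.69 ± 0.19) and Jak1 (-0.29 ± 0.09), kinases of the IL-6, IL-10 and interferon receptors, each lost the call without WT replicate 2 (adjusted p = 0.057 and 0.0802; 0.00426 to 0.134 and 0.00622 to 0.0802 over all alternatives), and Tyk2 also with the GC and length correction.

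**Figure D3:**
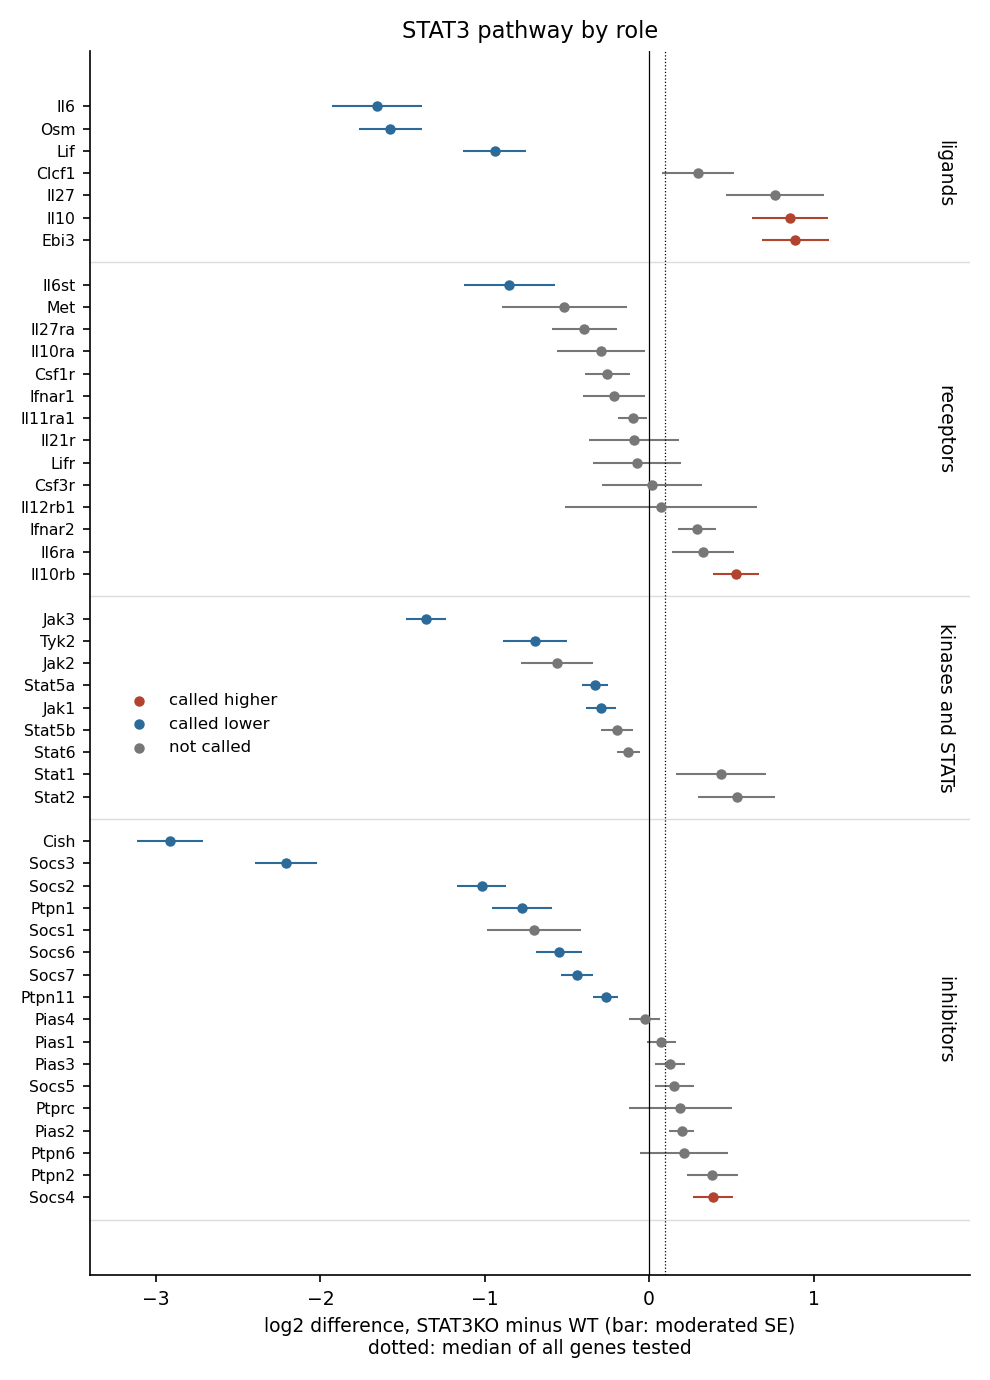
Log2 difference of STAT3KO minus WT with its moderated standard error for the tested genes of the STAT3 pathway, grouped as ligands, receptors, kinases with STATs, and inhibitors; the dotted line is the median of all genes tested, 0.09. Cish and Socs3 lie below -2, and 12 of 14 receptors were not called.

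Among the 10 genes to each side of Stat3, 15 were tested, of which 3 rose, 2 fell and 10 were not called. For comparison, 29.2% of all genes tested rose and 14.8% fell. Stat5a, its next neighbour and a related factor activated by growth factor and interleukin receptors, had 10.7, 11.2 and 10.6 RPKM in WT and 8.82, 7.72, 9.23 and 8.03 RPKM in STAT3KO (log2 difference -0.33 ± 0.08, limma adjusted p = 0.00611). The call was lost with the GC and length correction. Stat5b, the gene after that, had 16.7, 17.2 and 17.6 RPKM in WT and 13.9, 13.8, 17.4 and 14.4 RPKM in STAT3KO and did not pass (limma adjusted p = 0.12), though it passed with median-ratio scaling and without STAT3KO replicate 3. Ghdc, the gene that follows, rose (log2 difference 0.29 ± 0.08, limma adjusted p = 0.0138), a call lost with median-ratio scaling and without WT replicate 1 (adjusted p = 0.0626; 0.0012 to 0.127 over all alternatives). On the other side Ptrf, a coat protein of caveolae, is next and was not called (log2 difference -0.57 ± 0.34, limma adjusted p = 0.195). Atp6v0a1, a proton pump subunit 2 genes away, fell (log2 difference -0.78 ± 0.19, limma adjusted p = 0.00604), and Psmc3ip, a recombination factor 7 genes away, rose (log2 difference 0.81 ± 0.14, limma adjusted p = 0.000888). Mlx, a partner of glucose-sensing factors 6 genes away, passed narrowly (log2 difference 0.20 ± 0.07, limma adjusted p = 0.0442) and lost its call with median-ratio scaling, with the GC and length correction and without any 1 of 7 libraries (adjusted p up to 0.141; 0.0216 to 0.969 over all alternatives). The order of the genes is that of RefSeq's GRCm38.p6.

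Of 44 transcription factors of myeloid cells tested 19 fell (43.2%, against 14.8% of all genes) and 5 rose (11.4%, against 29.2%). Of the 44, 11 fell at least 2-fold, against 2.43% of all genes. The count of falls was 18 or 19 whichever library was left out, while that of rises went from 5 to 2 without WT replicate 1, to 3 without STAT3KO replicate 1 or TLR9KO replicate 2 or 4, and to 2 with median-ratio scaling. Egr2, an early growth response factor, had 79.2, 99.95 and 83.7 RPKM in WT and 16.98, 8.66, 19.8 and 11.9 RPKM in STAT3KO (log2 difference -2.59 ± 0.22, limma adjusted p = 2.18e-05), and its highest STAT3KO library was under 20 RPKM. Egr1 and Egr3 fell by 1.79 ± 0.23 and 1.26 ± 0.14. All 3 members of the Nr4a family of orphan nuclear receptors fell, Nr4a2 by 2.51 ± 0.34, Nr4a3 by 1.98 ± 0.39 and Nr4a1 by 1.57 ± 0.22. Nr4a1 was 146, 208 and 174 RPKM in WT and 61.2, 50.5, 87.7 and 41.02 RPKM in STAT3KO.

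Irf4, a factor of alternatively activated macrophages and dendritic cells, had 12.9, 25.96 and 8.75 RPKM in WT and 2.06, 1.39, 2.77 and 2.07 RPKM in STAT3KO (log2 difference -2.34 ± 0.38, limma adjusted p = 0.000748). Cebpe, which drives granulocyte maturation, had 12.4, 9.95 and 8.49 RPKM in WT and 2.32, 1.87, 2.4 and 1.64 RPKM in STAT3KO (log2 difference -1.88 ± 0.22, limma adjusted p = 0.000118). Both had every STAT3KO library below 3 RPKM. Runx3, a factor of dendritic cells and lymphocytes (-1.22 ± 0.11), Bhlhe40, a repressor of Il10 (-1.33 ± 0.19), Bcl3, an NF-kappa-B partner (-1.11 ± 0.14), and Rxra, the retinoid X receptor (-0.88 ± 0.09), fell as well. In the other direction, Pparg, a nuclear receptor for fatty acids that partners with Rxra, had 6.44, 10.2 and 6.1 RPKM in WT and 19.3, 15, 15.3 and 14.2 RPKM in STAT3KO (log2 difference 1.01 ± 0.18, limma adjusted p = 0.00136), and Myc rose by 0.81 ± 0.16.

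Of 19 co-stimulatory and checkpoint ligands and receptors tested 7 fell (36.8%, against 14.8% of all genes) and 1 rose (5.26%, against 29.2%). Besides Pdcd1lg2, Cd274, which encodes PD-L1, the other PD-1 ligand, had 75.2, 100.2 and 115 RPKM in WT and 51.3, 57.97, 53.4 and 45.1 RPKM in STAT3KO (log2 difference -0.87 ± 0.13, limma adjusted p = 0.000531). The groups did not overlap for either PD-1 ligand. Tnfsf14, the ligand LIGHT (-1.44 ± 0.23), and Cd244, a receptor of the SLAM family (-0.93 ± 0.12), fell, and Cd48, the ligand of Cd244, rose (1.17 ± 0.23) with a call lost under the GC and length correction. In the tumour necrosis factor superfamily 9 of 22 tested members fell (40.9%, against 14.8% of all genes) and 4 rose (18.2%, against 29.2%), with 2 rises under the GC and length correction. Of the 22, 4 fell at least 2-fold, against 2.43% of all genes.

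Of 23 interleukin receptor genes tested 9 fell (39.1%, against 14.8% of all genes) and 1 rose (4.35%, against 29.2%). The falls numbered 5 without STAT3KO replicate 1. Il1r2, the decoy receptor for interleukin 1, had 58.9, 49.2 and 51.7 RPKM in WT and 14.7, 18.6, 16.7 and 11.7 RPKM in STAT3KO (log2 difference -1.74 ± 0.16, limma adjusted p = 2.65e-05). Il4ra, the receptor subunit shared by IL-4 and IL-13, had 155, 119 and 149.6 RPKM in WT and 44.9, 55.5, 58.8 and 57.4 RPKM in STAT3KO (log2 difference -1.36 ± 0.15, limma adjusted p = 9.26e-05), and Il13ra1, its partner for IL-13, 22.6, 25.5 and 31.1 RPKM in WT and 10.9, 13.6, 14.2 and 10.2 RPKM in STAT3KO (log2 difference -1.05 ± 0.16, limma adjusted p = 0.000497). No library of one group reached the range of the other for these 3 genes. Il18rap, a subunit of the interleukin 18 receptor, fell by 1.23 ± 0.20.

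Of 12 CC chemokines tested 3 rose (25%, against 29.2% of all genes) and 4 fell (33.3%, against 14.8%), and with the GC and length correction 0 rose and 6 fell. Ccl12, an attractant of monocytes, had 109.7, 88.2 and 119 RPKM in WT and 226, 246, 231 and 280.2 RPKM in STAT3KO (log2 difference 1.22 ± 0.17, limma adjusted p = 0.000349), and Ccl24, an attractant of eosinophils, rose by 0.91 ± 0.20, both calls lost under that correction. The count of falls, which includes Ccl17 and Ccl6, was 2 without STAT3KO replicate 3 or WT replicate 3. Of 8 CXC chemokines 1 rose (12.5%, against 29.2% of all genes) and 0 fell (against 14.8%). The gene that rose was Pf4, platelet factor 4, with 202, 109 and 322 RPKM in WT and 771, 606, 599.98 and 974 RPKM in STAT3KO (log2 difference 1.91 ± 0.48, limma adjusted p = 0.00797), a call also lost with the GC and length correction. Among 8 chemokine receptors 1 rose (12.5%, against 29.2% of all genes), Cx3cr1, and 2 fell (25%, against 14.8%), 1 of which lost its call in most fits that left out 1 library. The other, Ccrl2, a non-signalling receptor that binds chemerin, fell from 98.1, 151 and 126 RPKM to 59.2, 63.1, 87.1 and 50.02 RPKM (log2 difference -0.94 ± 0.19, limma adjusted p = 0.00245).

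Of 18 growth factors 8 rose (44.4%, against 29.2% of all genes) and 5 fell (27.8%, against 14.8%). The rises numbered 5 without WT replicate 3 and 5 with median-ratio scaling. Igf1, insulin-like growth factor 1, had 13.3, 10.6 and 6.29 RPKM in WT and 66.6, 31.9, 30.1 and 47.8 RPKM in STAT3KO (log2 difference 2.01 ± 0.33, limma adjusted p = 0.000775). Gdf15, a stress-induced TGF-beta family member, had 35.97, 35.5 and 29.5 RPKM in WT and 109, 134, 84.4 and 84.4 RPKM in STAT3KO (log2 difference 1.56 ± 0.16, limma adjusted p = 4.83e-05). Angpt2, an angiopoietin (1.43 ± 0.22), and Pdgfa, a platelet-derived growth factor chain (0.89 ± 0.17), rose from low levels. Against these, Areg, amphiregulin, had 8.77, 19.3 and 10.5 RPKM in WT and 1.24, 0.69, 1.47 and 1.15 RPKM in STAT3KO (log2 difference -2.64 ± 0.38, limma adjusted p = 0.000358), and Hbegf, another ligand of the EGF receptor, fell by 1.75 ± 0.26. Tgfb1, transforming growth factor beta 1, had 337, 309 and 329 RPKM in WT and 157, 167, 177 and 183 RPKM in STAT3KO, a close grouping on each side with means of 325 ± 14.6 and 171 ± 11.4 RPKM ± SD (n = 3 and 4; log2 difference -0.92 ± 0.09, limma adjusted p = 3.69e-05). Both EGF receptor ligands were below 5 RPKM in every STAT3KO library.

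Enzymes and receptors of prostaglandins and leukotrienes counted 7 falls (33.3%, against 14.8% of all genes) and 4 rises (19%, against 29.2%) among 21 tested, with 2 rises under the GC and length correction. Ltb4r1, the high-affinity receptor for leukotriene B4, had 101, 93.7 and 116 RPKM in WT and 15.9, 20.3, 18.6 and 15.8 RPKM in STAT3KO, and no gene named here but Stat3 had a smaller adjusted p (log2 difference -2.49 ± 0.13, limma adjusted p = 4.06e-06). Alox15, a lipoxygenase of alternatively activated macrophages (-2.10 ± 0.40), Ptgs2, cyclooxygenase 2 (-1.42 ± 0.30), and Pla2g15, a lysosomal phospholipase (-0.65 ± 0.14), fell. Ptgs2 was 30.1, 51.2 and 48.1 RPKM in WT and 21.9, 8.95, 21.4 and 12.2 RPKM in STAT3KO. Hpgds, prostaglandin D synthase (1.52 ± 0.23), Ltc4s, leukotriene C4 synthase (1.49 ± 0.34), and Alox5ap, the partner of 5-lipoxygenase (0.61 ± 0.12), rose, the last with a call lost under the GC and length correction.

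Among 27 matrix proteases and inhibitors 6 rose (22.2%, below the 29.2% of all genes) and 5 fell (18.5%, near the 14.8%), and 3 rose with the GC and length correction. Plau, the urokinase plasminogen activator, had 192, 157 and 179.8 RPKM in WT and 383, 354, 284 and 387 RPKM in STAT3KO (log2 difference 0.99 ± 0.12, limma adjusted p = 0.000142), whereas its receptor Plaur had 292, 276 and 308 RPKM in WT and 149, 156, 137 and 116 RPKM in STAT3KO (log2 difference -1.07 ± 0.17, limma adjusted p = 0.000558). Ligand and receptor thus moved in opposite directions, with no overlap for either. Timp1, a metalloproteinase inhibitor (-1.11 ± 0.18), and the metalloproteinases Mmp19 (-1.11 ± 0.23) and Mmp25 (-1.40 ± 0.31) fell. Of 22 purine, adenosine and related receptors 5 fell (22.7%, against 14.8% of all genes) and 4 rose (18.2%, against 29.2%). The adenosine receptors Adora3 (-1.30 ± 0.23) and Adora2b (-0.80 ± 0.08) and Gpr132, a receptor for lactate and oxidised lipids (-1.48 ± 0.30), fell, while Gpr183, an oxysterol receptor (1.22 ± 0.12), and P2ry12, the ADP receptor of microglia and platelets (1.15 ± 0.23), rose.

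Cholesterol synthesis genes moved one way: of 23 tested 11 fell (47.8%, against 14.8% of all genes) and 0 rose (against 29.2%), with a median log2 difference of -0.43 against 0.09 for all genes. With the GC and length correction 13 fell. The count was 5 without WT replicate 1, 6 without STAT3KO replicate 1 or WT replicate 2 and 7 without STAT3KO replicate 3 or 4, and no member rose in any of these fits. Srebf2, the factor that drives the pathway, had 57.3, 48.8 and 40.3 RPKM in WT and 23.3, 26.9, 25.1 and 21.4 RPKM in STAT3KO (log2 difference -0.97 ± 0.21, limma adjusted p = 0.00391). Mvd, a decarboxylase of the mevalonate pathway, had 25.7, 20.8 and 18.8 RPKM in WT and 10.3, 11.97, 8.91 and 8.55 RPKM in STAT3KO (log2 difference -1.06 ± 0.20, limma adjusted p = 0.00156), and WT replicate 3 was the lowest WT library for both genes.

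Of 21 genes of lipoproteins and lipid export 6 rose (28.6%, near the 29.2% of all genes) and 3 fell (14.3%, near the 14.8%), or 1 without STAT3KO replicate 3 or WT replicate 3. Of the 21, 5 rose at least 2-fold, against 3.68% of all genes. Besides Apoe and Pparg these include Apoc2, an activator of lipoprotein lipase, with 6.22, 10.6 and 9.73 RPKM in WT and 20.9, 34.4, 37.5 and 28.3 RPKM in STAT3KO (log2 difference 1.67 ± 0.23, limma adjusted p = 0.000291), and Cd36, a receptor for fatty acids and oxidised lipids, with 77.1, 71.5 and 121 RPKM in WT and 287, 255, 170.4 and 289 RPKM in STAT3KO (log2 difference 1.47 ± 0.32, limma adjusted p = 0.00361). Nr1h2, the oxysterol receptor LXR-beta, fell by 0.39 ± 0.08. Among 24 receptors and bridging proteins for dead cells 8 rose (33.3%) and 4 fell (16.7%), shares near the 29.2% and 14.8% of all genes, and 5 rose and 7 fell with median-ratio scaling. The rises numbered 5 without WT replicate 1. Msr1, the class A scavenger receptor, had 55.4, 65.1 and 57.8 RPKM in WT and 158, 145, 152 and 167 RPKM in STAT3KO (log2 difference 1.38 ± 0.12, limma adjusted p = 2.18e-05). Trem2, a lipid-binding receptor of macrophages, rose by 1.65 ± 0.12 and its signalling partner Tyrobp by 1.13 ± 0.19. Tyro3, a receptor tyrosine kinase for Gas6, had 5.7, 3.53 and 2.09 RPKM in WT and 0.65, 0.37, 0.58 and 0.49 RPKM in STAT3KO (log2 difference -1.58 ± 0.23, limma adjusted p = 0.000343), and Mrc1, the mannose receptor, fell by 0.85 ± 0.21.

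Of 18 complement genes 6 rose (33.3%) and 3 fell (16.7%), shares near the 29.2% and 14.8% of all genes, and the rises numbered 2 with median-ratio scaling, 1 with the GC and length correction, 2 without WT replicate 1 and 3 without WT replicate 3 or STAT3KO replicate 4. The falls of 2 genes were larger than any of the rises. Itgax, which encodes CD11c of complement receptor 4 and is also a marker of dendritic cells, had 191, 191 and 127 RPKM in WT and 41.4, 21.8, 34.2 and 52.2 RPKM in STAT3KO (log2 difference -2.19 ± 0.29, limma adjusted p = 0.000236). C4b, complement component 4, had 55.97, 54.4 and 64.1 RPKM in WT and 13.5, 19.8, 24.4 and 21.8 RPKM in STAT3KO (log2 difference -1.53 ± 0.17, limma adjusted p = 9.01e-05). No STAT3KO library of either gene reached the WT range.

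Iron genes included the rise of ferroportin described above. Of 22 tested 5 rose (22.7%, below the 29.2% of all genes) and 4 fell (18.2%, near the 14.8%), and 3 rose and 6 fell with median-ratio scaling. The rises numbered 3 without STAT3KO replicate 1 or WT replicate 1. Blvrb, biliverdin reductase B, had 56.4, 59.1 and 79.8 RPKM in WT and 149, 155, 132 and 129 RPKM in STAT3KO (log2 difference 1.12 ± 0.17, limma adjusted p = 0.000577), and Blvra rose by 0.75 ± 0.14 with a call lost under the GC and length correction. The falls include Slc39a14, which takes up iron not bound to transferrin (-1.31 ± 0.23), and Steap3, the endosomal ferrireductase (-0.64 ± 0.12).

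Among 25 glutathione and NRF2 genes 6 rose (24%, below the 29.2% of all genes) and 3 fell (12%, near the 14.8%). The falls numbered 0 without STAT3KO replicate 3 or WT replicate 1 and 1 without WT replicate 3. Gclm, the modifier subunit of the enzyme that limits glutathione synthesis, had 11.9, 7.16 and 14.8 RPKM in WT and 51.1, 43.2, 27.6 and 38.7 RPKM in STAT3KO (log2 difference 1.76 ± 0.25, limma adjusted p = 0.00032), and its catalytic partner Gclc had 3.76, 3.81 and 4.9 RPKM in WT and 10.9, 9.73, 7.17 and 8.28 RPKM in STAT3KO (log2 difference 0.95 ± 0.17, limma adjusted p = 0.00126). STAT3KO was above WT in every library for both subunits. Txn1, thioredoxin (1.01 ± 0.19), and Prdx1, a peroxiredoxin (0.77 ± 0.20), rose as well, Prdx1 with a call lost under the GC and length correction. In the amino acid stress list 2 of 21 rose and 2 fell (9.52% each, below both shares of all genes), and 7 fell with median-ratio scaling and 6 with the GC and length correction. Leaving out 1 library gave 1 to 4 falls. The rises were the factors Atf4, with 71.05, 63.2 and 82.01 RPKM in WT and 127, 156, 154 and 116 RPKM in STAT3KO (log2 difference 0.93 ± 0.13, limma adjusted p = 0.000295), and Ddit3 (0.98 ± 0.14), whose call was lost under that correction. Slc7a5, a transporter of large neutral amino acids, had 66.97, 42.5 and 46.02 RPKM in WT and 21.5, 22.7, 19.3 and 21.1 RPKM in STAT3KO (log2 difference -1.23 ± 0.20, limma adjusted p = 0.000803). Of 23 genes of the unfolded protein response 3 rose (13%, below the 29.2% of all genes) and 5 fell (21.7%, against 14.8%), and 9 fell with median-ratio scaling. The falls numbered 3 without STAT3KO replicate 3 or 4, WT replicate 3 or TLR9KO replicate 2. Xbp1, a factor that drives chaperone and secretory genes, had 162, 158 and 154 RPKM in WT and 81.2, 89.96, 81.7 and 73.5 RPKM in STAT3KO (log2 difference -0.95 ± 0.08, limma adjusted p = 2.18e-05), and Hspa5, the chaperone BiP, rose by 0.51 ± 0.11.

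In the BCL2 family 4 of 18 members rose (22.2%, below the 29.2% of all genes) and 3 fell (16.7%, near the 14.8%). The falls numbered 5 with median-ratio scaling or without TLR9KO replicate 1 and 6 with the GC and length correction. Bbc3, the p53-induced death factor PUMA, had 3.48, 3.46 and 3.86 RPKM in WT and 7.67, 13.1, 11.4 and 10.3 RPKM in STAT3KO (log2 difference 1.32 ± 0.17, limma adjusted p = 0.000217), and Bid (0.82 ± 0.14) and Bax (0.50 ± 0.08), also promoters of cell death, rose less. Bcl2l11, the death factor BIM (-0.89 ± 0.17), and Bak1, a relative of Bax (-0.74 ± 0.13), fell. Members with the same role in cell death therefore changed in opposite directions. Of 36 genes of DNA replication and mitosis 8 rose (22.2%, below the 29.2% of all genes) and 0 fell (against 14.8%). Among them Pcna, the replication clamp, had 79.1, 83.9 and 69.4 RPKM in WT and 172, 197, 131 and 155 RPKM in STAT3KO (log2 difference 1.06 ± 0.13, limma adjusted p = 0.000137), and Gins1 (1.10 ± 0.17) and Gins2 (0.89 ± 0.17), subunits of the replicative helicase, rose. The rises numbered 4 without STAT3KO replicate 2 or 4, 5 without STAT3KO replicate 1, WT replicate 3 or TLR9KO replicate 4, and 4 with median-ratio scaling.

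**Figure D4:**
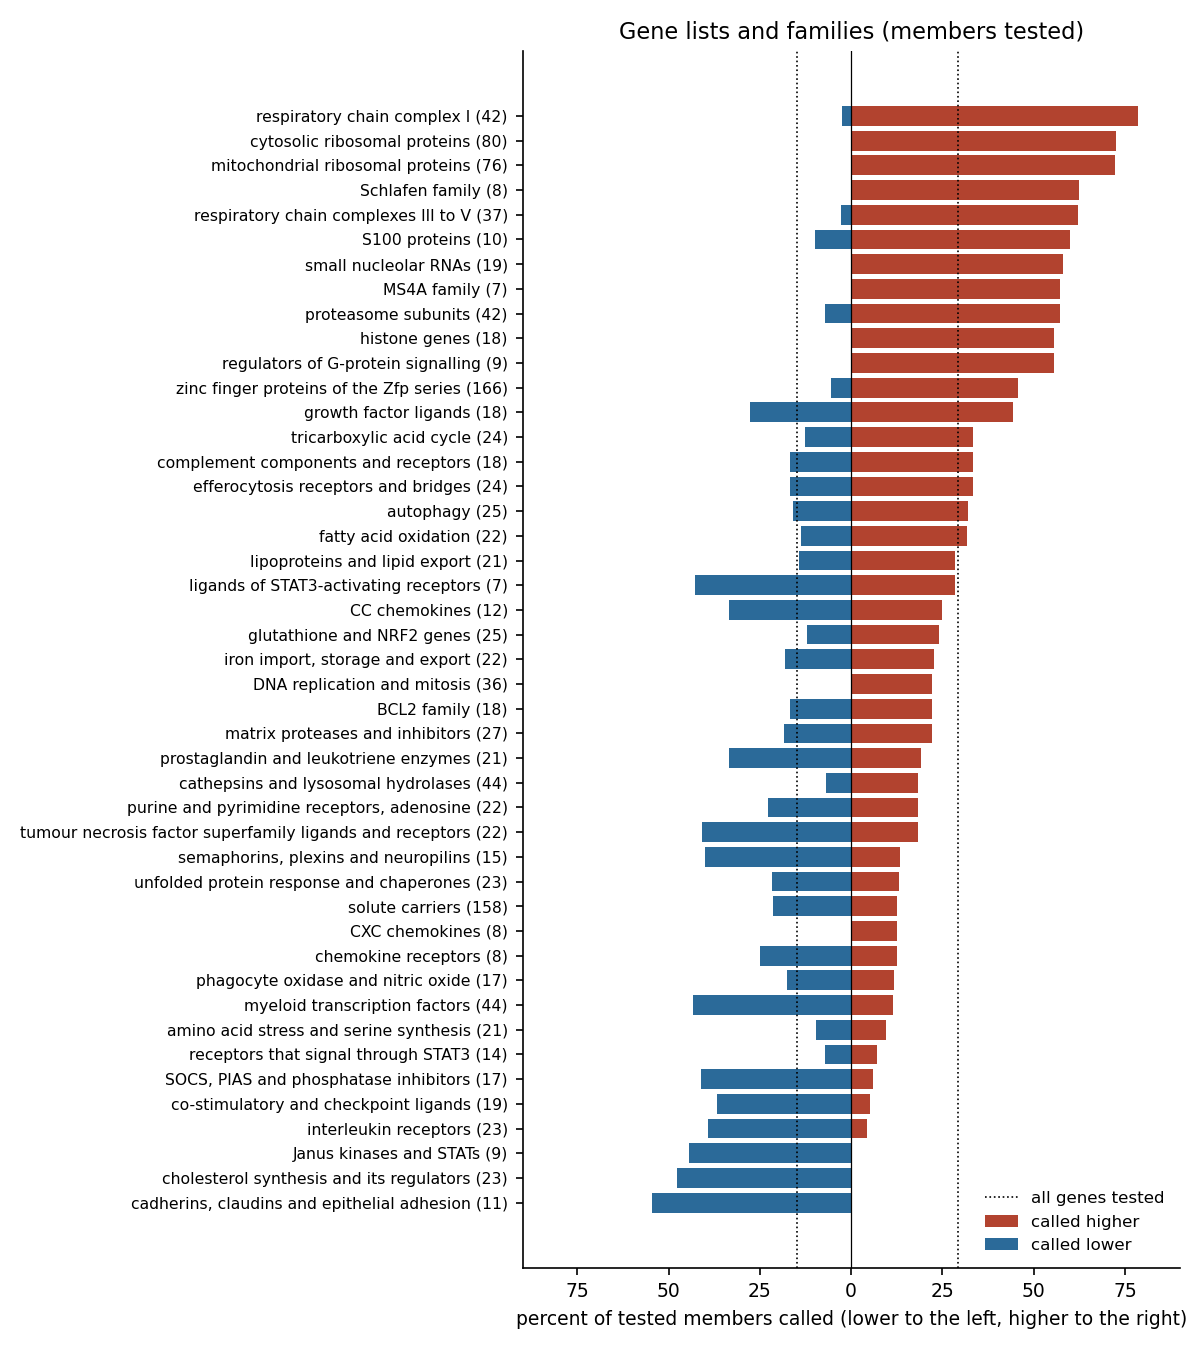
Percent of the tested members of each gene list or family that were called higher (right) or lower (left) in STAT3KO; the number tested is in parentheses and the dotted lines mark 29.2% and 14.8%, the shares of all genes tested. Ribosomal and respiratory chain genes and the Schlafen family lie at the top with over 60% higher. Epithelial adhesion, cholesterol synthesis and the Janus kinases and STATs lie at the bottom with none higher.

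In 5 families of housekeeping genes 57.1% to 78.6% of the tested members rose, against 29.2% of all genes. Of 80 cytosolic ribosomal protein genes 58 rose and 0 fell, with a median of 0.60, and of 76 mitochondrial ribosomal protein genes 55 rose and 0 fell, with a median of 0.44. In complex I of the respiratory chain 33 of 42 rose and 1 fell (median 0.48), in complexes III to V 23 of 37 rose and 1 fell (0.47), and among proteasome subunits 24 of 42 rose and 3 fell (0.33). These counts shrank with the GC and length correction, to 34 rising and 4 falling for cytosolic ribosomal proteins (median 0.24), 31 and 4 for mitochondrial ones (0.23), 15 and 5 for complex I (0.18), 13 and 3 for complexes III to V (0.04) and 9 and 5 for the proteasome (0.07). With median-ratio scaling 49, 42, 19, 18 and 16 members of these 5 families rose, and 0, 1, 3, 2 and 4 fell. Whether length or GC content of the transcripts accounts for these rises was not tested beyond that correction, which also set the libraries to the same mean level.

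Other families behaved differently under it. Of 166 tested zinc finger genes of the Zfp series 76 rose (45.8%, against 29.2% of all genes) and 9 fell (5.42%, against 14.8%), with a median of 0.26, and 70 rose and 10 fell with the GC and length correction. The falls numbered 4 or 5 without WT replicate 1 or 3 or STAT3KO replicate 1 or 4, and 16 with median-ratio scaling. Of the 76 that rose 25 had a WT mean under 1 RPKM and so passed the filter only through the other groups. In the MS4A family 4 of 7 rose (57.1%, against 29.2% of all genes) and 0 fell (against 14.8%), and 3 rose with the correction. Of 158 solute carriers 34 fell (21.5%, against 14.8% of all genes) and 20 rose (12.7%, against 29.2%) as deposited, 50 fell and 18 rose with the correction, and 60 fell and 13 rose with median-ratio scaling. The rises numbered 13 without WT replicate 1 and 12 without WT replicate 2.

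Small nucleolar RNAs guide the modification of ribosomal RNA and are mostly cut out of introns of host genes. Of 105 in the files 19 had a mean of at least 1 RPKM, and 11 of these rose (57.9%, against 29.2% of all genes) and 0 fell (against 14.8%). Of the 19, 8 rose at least 2-fold, against 3.68% of all genes. After the correction there were 6 rises and 2 falls. Of the 11 that rose 5 had a WT mean under 1 RPKM, so they passed the filter only through the groups where they were high, and the filter partly sets the count. Their host genes were looked at as well, a choice made after the values were seen. RefSeq names 17 host genes of the Snhg series, Gas5 or Zfas1 among the symbols in the files, and 11 of them were tested. Of these 10 rose (against 29.2% of all genes) and 0 fell (against 14.8%), with a median of 1.44. The rise was at least 2-fold for 8, against 3.68% of all genes. With the correction 9 rose, with a median of 1.17. Of the 10 that rose 2 had a WT mean under 1 RPKM and so passed the filter only through the other groups. 1500012F01Rik, which RefSeq names Zfas1, had 4.13, 5.2 and 5.74 RPKM in WT and 27.97, 31.01, 41.3 and 31.9 RPKM in STAT3KO (log2 difference 2.49 ± 0.18, limma adjusted p = 1.21e-05). Gas5 had 1.69, 2.12 and 2.62 RPKM in WT and 9.4, 7.94, 7.11 and 9.46 RPKM in STAT3KO (log2 difference 1.59 ± 0.13, limma adjusted p = 1.83e-05). Snhg1 rose by 1.62 ± 0.16, 1810032O08Rik (Snhg16) by 1.59 ± 0.11, Snhg12 by 1.54 ± 0.11, 2810008D09Rik (Snhg20) by 1.44 ± 0.13, Snhg8 by 1.33 ± 0.14, Snhg6 by 1.25 ± 0.10 and 9430008C03Rik (Snhg17) by 0.68 ± 0.11. Snhg3 rose by 0.80 ± 0.13 and lost its call with the correction. C230091D08Rik (Snhg14) alone was not called (log2 difference 0.07 ± 0.13, limma adjusted p = 0.694), and it passed as lower with the correction (-0.31, adjusted p = 0.0363).

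The TLR9KO libraries were also above WT for these host genes. Gas5 was at 7.49 to 9.23 RPKM in TLR9KO, and its difference of STAT3KO minus TLR9KO was 0.03 ± 0.12, limma adjusted p = 0.88. For 1500012F01Rik TLR9KO held 14.9 to 24.4 RPKM, between the other groups. Over all genes tested, TLR9KO and WT differed for 3229 (30.6%), a comparison that shares the WT libraries. TLR9KO minus WT was -2.70 for Hbb-b2, 1.85 for Col1a1 and 1.75 for Rgs1, in the direction of STAT3KO. It was -2.42 for Npy, in the opposite direction, and 0.54 for 1600029D21Rik, which was not called. STAT3KO and TLR9KO differed for 2409 (22.8%), a comparison that shares the STAT3KO libraries. The differences that follow are STAT3KO minus TLR9KO. Socs3 was 94.4 to 158 RPKM in TLR9KO (-2.36 ± 0.17, limma adjusted p = 1.92e-05), Ltb4r1 57.9 to 78.95 RPKM (-1.97 ± 0.12, limma adjusted p = 6.29e-06) and Egr2 61.5 to 76.9 RPKM (-2.24 ± 0.20, limma adjusted p = 8.18e-05), so these 3 were lower in STAT3KO than in either other group. Tgfb1 was 160.4 to 192 RPKM in TLR9KO (-0.04 ± 0.08, limma adjusted p = 0.746) and Slc7a5 14.3 to 26.2 RPKM (0.02 ± 0.19, limma adjusted p = 0.954), below WT like STAT3KO. In the STAT3 pathway the difference did not pass for Lif (-0.11 ± 0.18), Il6st (-0.09 ± 0.26), Socs7 (0.007 ± 0.09) and Socs4 (-0.008 ± 0.11). STAT3KO was lower than TLR9KO for Cish (-2.06 ± 0.19), Socs2 (-1.22 ± 0.14), Jak3 (-1.04 ± 0.11) and Osm (-1.03 ± 0.18), which passed.

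Summed markers of some cell types, such as macrophages and fibroblasts, did not overlap between WT and STAT3KO, and those of others, such as melanocytes, T and NK cells and endothelial cells, did. Their part in the results above was not tested. Macrophage markers summed to 5162 to 6216 RPKM in WT and 8851 to 12564 RPKM in STAT3KO. Of 14 tested 9 rose (64.3%, against 29.2% of all genes) and 2 fell (14.3%, near the 14.8%). The rises numbered 4 with median-ratio scaling and 3 without WT replicate 1. Neutrophil markers summed to 140 to 271 RPKM in WT and 101 to 131 RPKM in STAT3KO replicates 1, 3 and 4, against 716 RPKM in STAT3KO replicate 2. Of 12 tested 2 fell (16.7%, near the 14.8% of all genes) and 0 rose (against 29.2%). The falls were those of Trem1, an amplifying receptor of inflammation (-2.22 ± 0.29), and Il1r2. Without STAT3KO replicate 2 there were 3 falls. Dendritic cell markers gave 1 rise and 1 fall among 7 (14.3% each, against 29.2% and 14.8% of all genes). Bst2, a virus-restricting membrane protein also induced by interferon, rose (1.31 ± 0.18) and Itgax fell.

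Fibroblast markers summed to 30.6 to 80.6 RPKM in WT and 104 to 121 RPKM in STAT3KO. Of 16 markers 7 were tested, and of these 4 rose (57.1%, against 29.2% of all genes) and 0 fell (against 14.8%). Col1a2, Col3a1 and Bgn had WT means under 1 RPKM, so they passed the filter only through the groups where they were high, and the filter partly sets the count. Col1a1, a chain of type I collagen, had 1.53, 1.02 and 0.78 RPKM in WT and 5.84, 10.04, 11.7 and 10.3 RPKM in STAT3KO (log2 difference 2.29 ± 0.35, limma adjusted p = 0.000496), Col1a2, its partner, rose by 2.04 ± 0.38, Col3a1, type III collagen, by 2.08 ± 0.44, and Bgn, the proteoglycan biglycan, by 1.65 ± 0.23. The 3 collagen genes were lowest in STAT3KO replicate 1 among the STAT3KO libraries and still above every WT library. Without any 1 library all 4 rises were kept.

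Erythroid markers summed to 72.8 to 238 RPKM in WT and 16.7 to 81.3 RPKM in STAT3KO. Of 7 tested 5 fell (71.4%, against 14.8% of all genes) and 0 rose (against 29.2%). Hba-a1, an alpha globin gene, had 75.1, 21.6 and 82.5 RPKM in WT and 2.8, 26.1, 1.42 and 3.99 RPKM in STAT3KO, so the groups overlap through STAT3KO replicate 2 and WT replicate 2 (log2 difference -3.14 ± 0.71, limma adjusted p = 0.00477). Hba-a2, its near-identical copy, can share its reads (-3.01 ± 0.69). Hbb-b2, a beta globin gene, had 9.77, 3.22 and 8.07 RPKM in WT and 0.2, 0.2, 0.21 and 0.23 RPKM in STAT3KO with no overlap (log2 difference -2.62 ± 0.28, limma adjusted p = 6.27e-05). Platelet markers summed to 116 to 425 RPKM in WT and 608 to 1017 RPKM in STAT3KO, most of it Pf4, and 10 of the 12 markers were under 1 RPKM in all 7 libraries.

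T and NK cell markers summed to 14.7 to 71.9 RPKM in WT and 7.87 to 47.8 RPKM in STAT3KO, where replicate 3 held the most. Of 8 tested 2 fell (25%, against 14.8% of all genes), or 1 in most fits that left out 1 library, and 0 rose (against 29.2%). Both that fell, among them Cd2, an adhesion molecule of T cells (-1.34 ± 0.27), had STAT3KO means under 1 RPKM. They passed the filter only through the groups where they were high, so the filter partly sets the count. Endothelial markers summed to 39.99 to 74.3 RPKM in WT and 41.6 to 45.6 RPKM in STAT3KO, and Pecam1, also found on leukocytes, fell (-1.27 ± 0.32). Melanocyte markers were present in both groups, at 491 to 1562 RPKM in WT and 890 to 1368 RPKM in STAT3KO, and WT replicate 2 held the least. Of 12 tested 1 rose (8.33%, against 29.2% of all genes), with a WT mean under 1 RPKM, and 0 fell (against 14.8%). B cell markers summed to at most 4.78 RPKM in any library, with Cd79b, a subunit of the B cell receptor, called higher (1.46 ± 0.23). Cd79b was the only B cell marker tested. Its WT mean was under 1 RPKM, so it passed the filter only through the other groups. Epithelial markers summed to 15.1 to 25.8 RPKM in WT and 0.95 to 1.34 RPKM in STAT3KO, almost wholly Cdh1, and the other 14 of 15 were under 1 RPKM in all 7 libraries.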

How the data were processed

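RNA-seq values of CD11b-positive cells were deposited as 1 table per library, with 1 RPKM value per gene symbol for 22068 symbols, per the file headers. No unit stands in the header of TLR9KO replicate 4, but its values look like those of the rest in range and step size. Per the submitters' processing notes, the tools include TopHat 1.3.1, Bowtie 0.12.7, CASAVA 1.7 and Partek, and the mouse build is mm9. Near-identical genes can share reads, because the handling of reads with several matches is not given in the sources used here; nor are the annotation and the RPKM denominator. The files hold no counts, and no count model was fitted. Depth was estimated from the value that 1 read adds in microRNA genes and used for description only.

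Values were analysed as log2(RPKM + 1) which understates the changes of low genes. The filter of 1 RPKM on the mean of all 11 libraries left 10557 genes. The 3 group means were fitted with limma 3.58.1 and its trended eBayes step, run in R 4.3.3. Tests were two-sided, with Benjamini-Hochberg adjustment over all genes tested and a threshold of 0.05. In simulated data with 200 changed genes, the steps recovered 79% of 2-fold and 96% of 4-fold changes for STAT3KO minus WT, and 4.37% of calls were false. The changed genes left out the lowest levels, and the noise was normal and independent between genes. No differences in library scaling and no GC or length trends were simulated. These rates therefore do not give the share of false calls in the real data. Promoters came from RefSeq. Python 3.11.15 was used with numpy 2.4.6, pandas 2.3.3 and matplotlib 3.10.9.

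The comparison, the gene lists and the rules were chosen with earlier results of these data known. Named genes are Stat3 and its pathway and neighbours, and, among called genes whose groups do not overlap, the 15 largest rises and 15 largest falls with a higher mean of at least 5 RPKM. The 10 largest rises and 10 largest falls in RPKM, genes under 0.5 RPKM in 1 group and at least 5 RPKM in the other, and up to 4 called members per list and direction were added. List members whose call was lost on leaving out 1 library are mostly given as counts only, a choice made after their values were seen, as was that of the genes set beside TLR9KO. Some genes these rules select are not reported here. Of the 184 genes named, 177 were called.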

Additional observations from a re-analysis of the deposited data

Results flagged for a closer look

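Among 190 genes and 13 marker sums checked in the 4 STAT3KO libraries, 21 had 1 library far from the other 3, with a gap, relative to the group's range, above Dixon's 95% critical value. Chance gives about 1 in 20 such cases, and 11 of the 21 fell on STAT3KO replicate 2. The genes checked were the 184 named ones and the neutrophil genes S100a8, S100a9, Ngp, Camp, Ltf and Lcn2. All of the latter were flagged in that library and enter the neutrophil sum, so the choice of genes partly sets both counts.

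In STAT3KO replicate 2, neutrophil granule genes stood out. S100a8 was 194 RPKM there and 12.2 to 17.6 RPKM in the other STAT3KO libraries, and S100a9 was 150 RPKM (149.79) against 14 to 22.96 RPKM. Ngp was 94.96 RPKM against 0.08 to 0.30 RPKM, Camp 21.9 RPKM against 0 to 0.12 RPKM, Ltf 20.2 RPKM against 0.15 to 0.25 RPKM, and Lcn2 58.0 RPKM against 0.57 to 1.09 RPKM. The neutrophil markers together summed to 716 RPKM against 101 to 131 RPKM. The erythroid markers summed to 81.3 RPKM against 16.7 to 26.9 RPKM, with Hba-a1 at 26.1 RPKM against 1.42 to 3.99 RPKM. Lyve1 was 28.7 RPKM against 2.71 to 6.51 RPKM, and Tarm1 12.3 RPKM against 5.53 to 6.42 RPKM.

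STAT3KO replicate 3 was high for Cish, at 11.5 RPKM against 6.87 to 7.05 RPKM, for Stat5b, at 17.4 RPKM against 13.9 to 14.5 RPKM, and for the T and NK cell markers, at 47.8 RPKM against 7.87 to 12.8 RPKM. STAT3KO replicate 4 was high for Ctla2b, at 30.8 RPKM against 16.3 to 18.7 RPKM, and low for Tmsb10, at 861 RPKM against 1216 to 1267 RPKM, Bhlhe40, at 63.6 RPKM against 88.8 to 93.3 RPKM, and Ddit3, at 61.5 RPKM against 70.6 to 72.2 RPKM. STAT3KO replicate 1 was low for Laptm5, at 825 RPKM against 973 to 989 RPKM, Itgam, at 191 RPKM against 225 to 228 RPKM, and Col1a2, at 3.26 RPKM against 6.51 to 7.13 RPKM. Groups of 3, such as WT, were not checked.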

How the results depend on the processing

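The number of genes called, 4648, ran from 3388, with a filter of 5 RPKM that left 7351 genes, to 5611, with array weights, over the fits that used no replicate block and left out no single library. Genes called with at least a 2-fold change numbered 645, but 986 with a pseudocount of 0.1 and 270 with a pseudocount of 5, which set how far low genes can move. Leaving out 1 library at a time gave 3667 to 4875 calls, with 2494 to 3195 rises, 1173 to 1680 falls and 612 to 737 changes of at least 2-fold, and WT replicate 1 gave the fewest calls. Of the 177 called genes named, 145 kept the call in every alternative. The call was lost by 6 with median-ratio scaling, 20 with the GC and length correction and 13 without at least 1 library. C230091D08Rik, which was not called, changed sign with median-ratio scaling (-0.012), the GC and length correction (-0.31), that correction with the replicate block (-0.32) and on leaving out single libraries (-0.0339 to 0.19, lowest without WT replicate 3), and Mlx with the GC and length correction (-0.0062), and the cause was not tested.

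The labels do not say whether the replicate numbers pair the samples. Deviations from the group means correlated at 0.339, -0.181 and -0.069 between STAT3KO and WT libraries of the same number. Between libraries of unlike number they correlated at -0.608 to 0.489. Deviations cancel out within a group, so with these few libraries the correlations cannot settle whether the samples are paired. With the replicate block 4074 genes were called, 2711 higher and 1363 lower, 661 of them at least 2-fold, and 4 named genes lost the call. With the block and the GC and length correction 1843 genes were higher and 1692 lower, and 28 named genes lost the call.

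Depth limits the low values: 1 RPKM in a 2 kb gene is 60 reads in the shallowest library, and counting error could not be measured from RPKM. Gene annotation and multi-mapped reads limit paralogs and pseudogenes.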
